A study of Mus musculus with 6 samples.

Results

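The malate-aspartate shuttle genes of mouse CD8+ T cells are described here, chosen by symbol as the 7 genes *Got1*, *Got2*, *Mdh1*, *Mdh2*, *Slc25a11*, *Slc25a12* and *Slc25a13* out of 11922 genes in the count table. The shuttle carries reducing equivalents from cytosolic NADH into mitochondria, because the inner membrane does not let NADH through. Cytosolic malate dehydrogenase turns oxaloacetate into malate, malate enters in exchange for 2-oxoglutarate, the mitochondrial dehydrogenase makes oxaloacetate again, and a pair of aspartate aminotransferases moves the carbon back as aspartate. The aminotransferases hold pyridoxal phosphate (PLP), a cofactor made from vitamin B6, and aminooxyacetic acid (AOA) is a small molecule that blocks PLP enzymes. In dividing cells the same enzymes also make aspartate, which is a building block of nucleotides and proteins.

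Splenic CD8+ T cells of C57BL6/J mice were isolated with magnetic beads, activated with anti-CD3/anti-CD28 beads for 72 hours and expanded for 4 more days, with 100 units/ml of human IL-2. Water (vehicle) or 0.25 mM AOA was present for all 7 days. Each of 3 donor mice gave 1 vehicle and 1 AOA library, so that each group had n = 3, and the age and sex of the donors are not in the labels. No gene was deleted or added in either group, and the comparison asks how transcript levels differ after prolonged PLP enzyme inhibition.

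The libraries held 12881962 to 18934869 counts with vehicle and 18696114 to 21997078 with AOA. Vehicle replicate 2 stood apart on the second principal component of all genes, at -44.2 against 21.9 and 19.4 for the other vehicle libraries. AOA replicate 1 also stood apart from its group, with a chi-square of counts of 70.1 and 63.5 per gene against the other AOA libraries, which differed from each other by 10.4 per gene. For vehicle replicate 2 these values were 54.7 and 59.4, against 9.93 between the other vehicle libraries. All 7 listed CD8 T cell markers were in the table, and their summed level was 4681 to 5295 CPM, counts scaled to library size, with vehicle and 6314 to 7114 CPM with AOA. Of these, *Cd8a*, *Cd8b1* and *Thy1* rose, *Cd2* fell and *Cd3d*, *Cd3e* and *Cd3g* were not called, with a median log2 fold change of -0.13 over the 7. Markers of other cells that a magnetic isolation could leave behind also differed between the groups. The 4 CD4 T cell markers summed to 158 to 210 CPM with vehicle and 33.0 to 54.3 CPM with AOA. Here 3 of 4 were called lower, where 26.2% of all genes tested were called higher and 26.8% lower. The other marker, *Foxp3*, was not called, at 13.3 CPM with vehicle and 17.1 CPM with AOA, and was higher with AOA in 3 of 3 mice. The 4 of 6 myeloid markers in the table summed to 63.6 to 97.6 CPM and 1.88 to 5.55 CPM. The 2 that were tested, the integrins *Itgam* and *Itgax*, were lower. *Cd14*, too low to be tested, had 13, 16 and 5 counts with vehicle and 0, 1 and 0 counts with AOA. *Lyz2*, too low to be tested, had 0, 5 and 0 counts with vehicle and 6, 22 and 2 counts with AOA, above its vehicle library in 3 of 3 mice. The 2 of 4 NK cell markers in the table summed to 20.1 to 114 CPM and 3.53 to 11.6 CPM. The 1 that was tested, *Klrb1c*, was lower. *Ncr1*, too low to be tested, had 0, 37 and 0 counts with vehicle and 5, 11 and 3 counts with AOA. The 5 of 6 B cell markers summed to 13.9 to 18.4 CPM and 23.1 to 30.9 CPM, and 0 of 5 erythroid markers had a row. The part of these cells in the results that follow was not tested, and in bulk RNA fewer cells of a type and less RNA per cell cannot be told apart.

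Both malate dehydrogenases and 2 of the 3 carriers were higher with AOA, and neither aspartate aminotransferase passed the test. A call in 1 gene and none in another does not show that the genes differ. The 95% interval of the *Got2* log2 fold change, -0.08 to 0.67, held the values of *Mdh2* (0.52) and *Slc25a11* (0.40). Of the 7 shuttle genes, 4 rose (*Mdh1*, *Mdh2*, *Slc25a11* and *Slc25a13*), 0 fell and 3 were not called at an adjusted p of 0.05 (edgeR quasi-likelihood test, Benjamini-Hochberg adjustment over 11759 genes tested). The number that rose was 2 without vehicle replicate 1, vehicle replicate 3, AOA replicate 2 or AOA replicate 3. Among all genes tested, 26.2% were called higher and 26.8% lower. The same 4 genes had every AOA library above every vehicle library in CPM, which held for 31.0% of all genes. The median log2 fold change was 0.40 over the 7 genes and -0.02 over all genes tested. The summed level of the 7 genes was 677 to 758 CPM in the vehicle libraries and 968 to 1004 CPM in the AOA libraries. All p-values measure the spread between cultures of 3 donor mice.

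**Figure D1:**
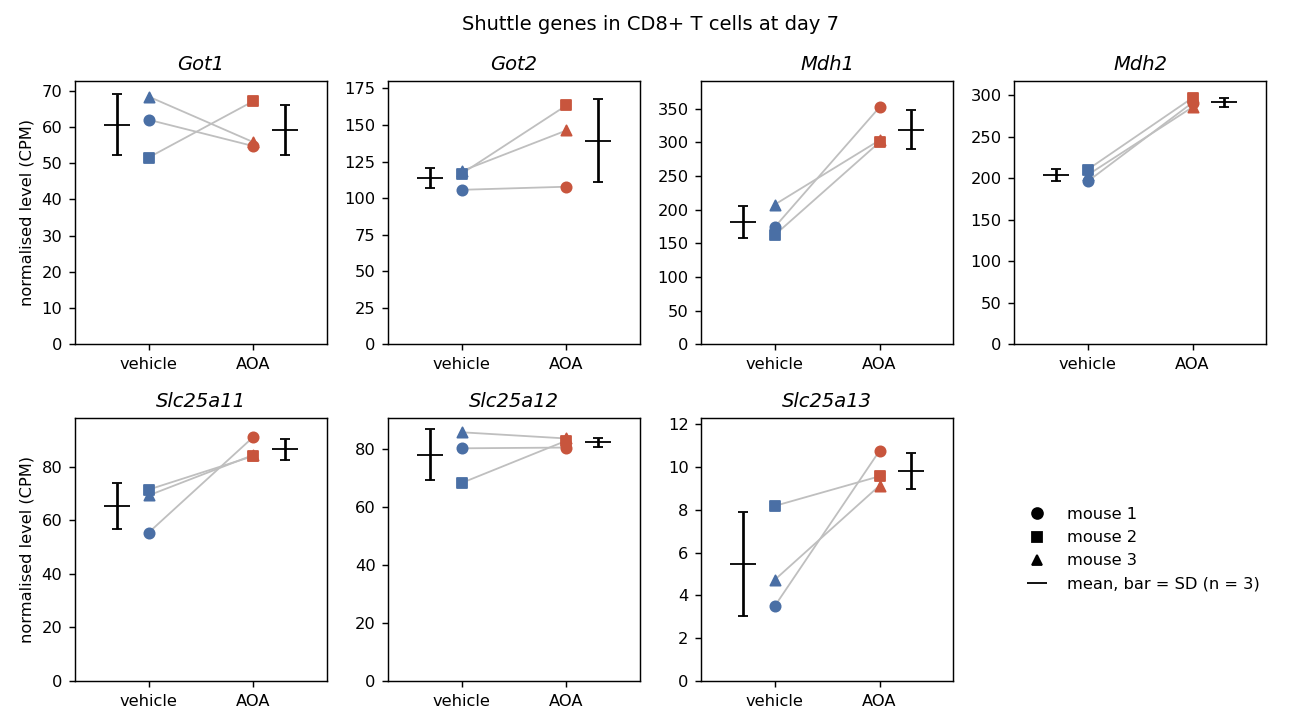
Level of each shuttle gene in CPM in the 3 vehicle and the 3 AOA libraries, with 1 point a library, lines joining the libraries of a mouse, and the mean and SD of each group at the side. The AOA libraries lie above all vehicle libraries for Mdh1, Mdh2, Slc25a11 and Slc25a13, and the groups overlap for Got1, Got2 and Slc25a12.

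*Got1* encodes the cytosolic aspartate aminotransferase and *Got2* the mitochondrial one, and these are the PLP enzymes of the shuttle. In both, PLP is held by a lysine, and the 30 coding bases around its codon are shown because this is the place where AOA meets the enzyme's cofactor. The capitals mark the lysine codon, which is codon 259 of *Got1* in its exon 6 (GRCm38, chr19:43504777-43504806, minus strand) and codon 279 of *Got2* in its exon 7 (chr8:95870776-95870805, minus strand), counted from the start codon.
Got1: cagtccttctccAAGaacttcgggctctac
Got2: caatcgtatgccAAGaacatgggcctgtac
The windows were identical at 21 of 30 bases, and the longest stretch the full transcripts shared was 12 bases, well short of a read.

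*Got1* (Entrez 14718, chr19:43499752-43524605, minus strand) stood at 62.0, 51.5 and 68.4 CPM in vehicle replicates 1 to 3 and at 54.7, 67.1 and 55.8 CPM in AOA replicates 1 to 3. The groups overlapped fully, and AOA was higher in 1 of 3 mice. The means were 60.6 ± 8.51 CPM with vehicle and 59.2 ± 6.88 CPM with AOA (SD, n = 3 each). The log2 fold change was -0.04 (SE 0.15, 95% interval -0.38 to 0.31, edgeR adjusted p = 0.860), an interval that leaves room for a change of either sign. The sign itself turned when single libraries were left out, with values from -0.13 without AOA replicate 2 to 0.087 without vehicle replicate 3, none of them called.

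*Got2* (Entrez 14719, chr8:95864133-95888401, minus strand) stood at 106, 117 and 118 CPM with vehicle and at 108, 163 and 146 CPM with AOA. AOA replicates 2 and 3 were above all vehicle libraries, while AOA replicate 1 lay among them. The log2 fold change was 0.29 (SE 0.17, 95% interval -0.08 to 0.67, edgeR adjusted p = 0.167), with AOA higher in 3 of 3 mice by 0.03, 0.49 and 0.30. Without AOA replicate 1 it was 0.45 and passed the test (edgeR adjusted p = 0.0150). Without AOA replicate 2 it was 0.17 (edgeR adjusted p = 0.478), and without any one of the other 4 libraries it was 0.26 to 0.35 and not called. *Got2* was also the shuttle gene with most sequence in common with other genes. Of the 2456 windows of 75 bases, the read length, in its longest coding transcript, 864 (35.2%) also occurred in transcripts of *Got2-ps1*, *Gm10874* or *Gm45760*, whereas *Slc25a12* shared 98 of 6277 (1.56%) with *Adpgk* and the other 5 genes shared 0. Only uniquely mapped reads were counted, and reads from such windows may have been left out. The reads were paired, so the share of windows does not give the share of reads left out. The effect on the *Got2* level and on the comparison was not tested.

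*Mdh1* encodes the cytosolic malate dehydrogenase, which oxidises NADH as it makes malate. It (Entrez 17449, chr11:21556692-21571934, minus strand) stood at 174, 162 and 207 CPM with vehicle and at 352, 300.2 and 303 CPM with AOA. The AOA libraries were all well above the vehicle ones. It rose 1.76-fold, a log2 fold change of 0.81 (SE 0.15, 95% interval 0.48 to 1.15, edgeR adjusted p = 0.00177), and by 1.02, 0.89 and 0.55 in mice 1 to 3.

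*Mdh2* encodes the mitochondrial malate dehydrogenase, which is also a step of the citrate cycle. It (Entrez 17448, chr5:135778649-135790386, plus strand) stood at 196, 211 and 204 CPM with vehicle and at 291, 297 and 286 CPM with AOA. The replicates were the tightest of the 7 genes relative to their level with vehicle, and the groups were widely separated. It rose 1.43-fold, a log2 fold change of 0.52 (SE 0.12, 95% interval 0.24 to 0.80, edgeR adjusted p = 0.00671), and by 0.57, 0.50 and 0.49 in mice 1 to 3.

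*Slc25a11* encodes the 2-oxoglutarate/malate carrier, which lets malate into mitochondria. It (Entrez 67863, chr11:70644019-70647531, minus strand) stood at 55.3, 71.4 and 69.2 CPM with vehicle and at 91.1, 83.9 and 84.3 CPM with AOA. The groups did not overlap, with the widest gap in mouse 1, whose vehicle library was the lowest and whose AOA library was the highest. It rose 1.32-fold, a log2 fold change of 0.40 (SE 0.14, 95% interval 0.09 to 0.71, edgeR adjusted p = 0.0333). This call was lost when any library other than vehicle replicate 2 was left out. The log2 fold change was then 0.32 without vehicle replicate 1, 0.47 without vehicle replicate 3, 0.37 without AOA replicate 1, 0.43 without AOA replicate 2 and 0.43 without AOA replicate 3, with edgeR adjusted p = 0.116, 0.0576, 0.0620, 0.0649 and 0.0748 in that order.

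*Slc25a12* and *Slc25a13* encode the aspartate/glutamate carriers aralar and citrin, which let aspartate out of mitochondria in exchange for glutamate. *Slc25a12* (Entrez 78830, chr2:71274270-71367781, minus strand) stood at 80.2, 68.3 and 85.8 CPM with vehicle and at 80.5, 82.9 and 83.6 CPM with AOA. The AOA libraries lay inside the vehicle range, and the log2 fold change was 0.08 (SE 0.13, 95% interval -0.22 to 0.37, edgeR adjusted p = 0.647).

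*Slc25a13* (Entrez 50799, chr6:6041218-6217304, minus strand) was the least abundant shuttle gene, with 44, 129 and 87 counts with vehicle and 234, 181 and 181 counts with AOA. These were 3.49, 8.18 and 4.72 CPM with vehicle and 10.8, 9.57 and 9.13 CPM with AOA. The groups did not overlap, but vehicle replicate 2 came close to the AOA libraries. It rose 1.79-fold, a log2 fold change of 0.84 (SE 0.30, 95% interval 0.16 to 1.52, edgeR adjusted p = 0.0403), and by 1.62, 0.23 and 0.95 in mice 1 to 3. Without vehicle replicate 2 the log2 fold change was 1.28, over 1.5 times as large. The call was lost without any one of the other 5 libraries, at 0.63 and 0.76 without vehicle replicates 1 and 3 and at 0.77, 0.86 and 0.89 without AOA replicates 1, 2 and 3 (edgeR adjusted p = 0.116, 0.111, 0.122, 0.0689 and 0.0742 in that order).

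**Figure D2:**
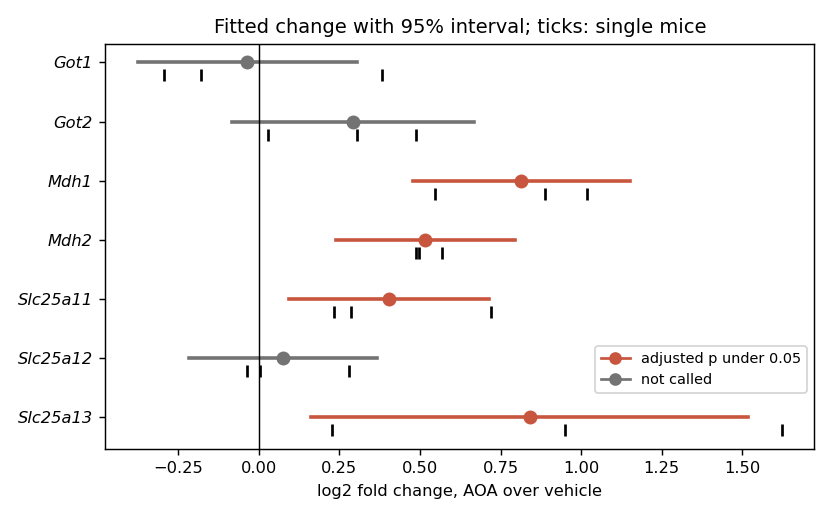
Log2 fold change of each shuttle gene, AOA over vehicle, with its 95% interval from the edgeR fit and the log2 difference in each of the 3 mice. The intervals of Mdh1, Mdh2, Slc25a11 and Slc25a13 lie above 0, and those of Got1, Got2 and Slc25a12 cross 0.

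Levels were compared between genes per length, as RPKM, which is CPM per kilobase, from the deposited gene length. The order was *Mdh2*, *Mdh1*, *Got2*, *Slc25a11*, *Got1*, *Slc25a12* and *Slc25a13* in both groups. With vehicle the mean RPKM was 159 ± 5.58, 92.5 ± 12.0, 48.4 ± 2.96, 35.1 ± 4.68, 29.5 ± 4.14, 26.7 ± 3.06 and 1.75 ± 0.778 (SD, n = 3). With AOA it was 227 ± 4.37, 163 ± 14.9, 59.3 ± 12.2, 46.5 ± 2.16, 28.8 ± 3.34, 28.2 ± 0.559 and 3.14 ± 0.270 (SD, n = 3). In the vehicle libraries the ranges of *Slc25a11* and *Got1* overlapped, with *Slc25a11* above *Got1* in 2 of 3 libraries. The ranges of *Got1* and *Slc25a12* overlapped as well, although within each library *Got1* was above *Slc25a12* in 3 of 3. In the AOA libraries the overlaps were between *Got2* and *Slc25a11*, with *Got2* above in 2 of 3 libraries, and between *Got1* and *Slc25a12*, with *Got1* above in 1 of 3. The deposited length of *Slc25a12* was 2924 bases, while its longest coding transcript in GENCODE had 6351 bases, so its place depends on the length used, although the order stayed as given with GENCODE lengths.

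The balance between partner genes was read as the log2 ratio of their RPKM within a library, with an exact two-sided permutation test over libraries whose smallest possible p is 0.1. Since the libraries pair by mouse, an exact two-sided test of the within-mouse differences (signs flipped) is given too, whose smallest possible p is 0.25. For the cytosolic over the mitochondrial aminotransferase, *Got1*/*Got2*, it was -0.58, -0.99 and -0.60 with vehicle and -0.79, -1.09 and -1.20 with AOA. The groups overlapped, and the means differed by -0.30 (exact permutation p = 0.2, n = 3 each). Within mice 1 to 3 the ratio was lower with AOA in 3 of 3, by -0.21, -0.11 and -0.60 (exact sign-flip permutation p = 0.25, the smallest possible). For *Mdh1*/*Mdh2* it was -0.78, -0.99 and -0.59 with vehicle and -0.34, -0.60 and -0.53 with AOA. *Mdh1* made up 36.7% ± 3.22 of the summed RPKM of both dehydrogenases with vehicle and 41.7% ± 2.26 with AOA (SD, n = 3 each), a difference in log2 ratio of 0.30 (exact permutation p = 0.2). The ratio was higher with AOA in 3 of 3 mice, by 0.45, 0.39 and 0.06 (exact sign-flip permutation p = 0.25). For *Slc25a12*/*Slc25a13* it was 4.62, 3.16 and 4.28 with vehicle and 3.00, 3.21 and 3.29 with AOA. The mean difference was -0.85 (exact permutation p = 0.3), vehicle replicate 2 lay within the AOA range, and the mice differed by -1.62, 0.05 and -0.99 (exact sign-flip permutation p = 0.5).

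A further pair of ratios was chosen after the fold changes had been seen, and is given as a description. *Mdh1*/*Got1*, the dehydrogenase and the aminotransferase of the cytosol, was at 1.56, 1.72 and 1.67 with vehicle and at 2.76, 2.23 and 2.51 with AOA. It did not overlap between the groups and was higher with AOA in 3 of 3 mice, by 1.20, 0.51 and 0.84. *Mdh2*/*Got2*, their mitochondrial counterparts, was at 1.76, 1.72 and 1.66 with vehicle and at 2.31, 1.73 and 1.84 with AOA. Here AOA replicate 2 lay within the vehicle range, and the difference was 0.54, 0.01 and 0.18 in mice 1 to 3.

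**Figure D3:**
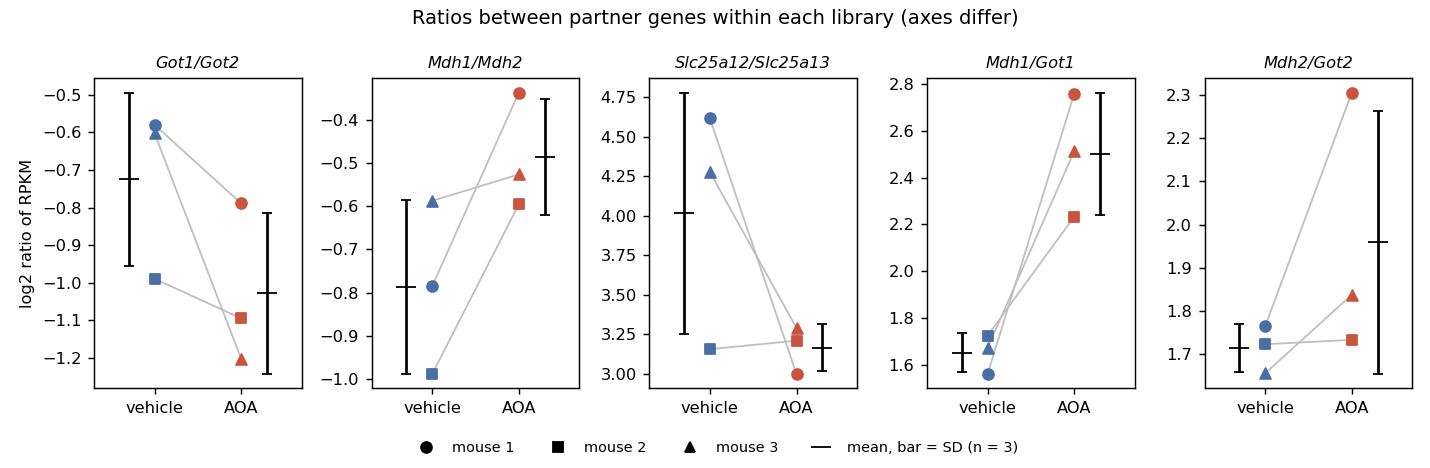
Log2 ratio of RPKM between partner genes in each library, with lines joining the vehicle and AOA libraries of a mouse. Only Mdh1/Got1 has no overlap between the groups, at 1.56 to 1.72 with vehicle and 2.23 to 2.76 with AOA.

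*Got1* and *Got2* varied differently among the libraries. Over the 6 libraries, and out of 8761 genes compared, *Got1* was most alike in log2 CPM to *Tox4*, *Frs2* and *Stau1* (Pearson r = 0.978, 0.970 and 0.953), none of which was called between the groups. *Got2* was most alike to *Man1a2*, *Vcp* and *Uhrf1bp1* (r = 0.994, 0.992 and 0.987), which were not called either. These correlations describe 6 libraries that fall into 2 groups and share 3 donors, and the genes are the highest of many.

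The promoters of the shuttle genes are shown for 3 members, *Got1* because it did not pass the test and holds the most CCAAT letters, and *Mdh2* and *Slc25a11* because they rose and hold the same letters TCGCGA. The 300 bases run from 250 before to 50 after the RefSeq start site (GRCm38.p6), on the gene's strand, at chr19:43524556-43524855 (minus), chr5:135778399-135778698 (plus) and chr11:70646990-70647289 (minus). Capitals mark matches on either strand to the CCAAT box, to the letters TCGCGA, to the cAMP response element TGACGTCA and to the amino acid response element TGATGNAA, all picked after the sequences had been seen.
Got1: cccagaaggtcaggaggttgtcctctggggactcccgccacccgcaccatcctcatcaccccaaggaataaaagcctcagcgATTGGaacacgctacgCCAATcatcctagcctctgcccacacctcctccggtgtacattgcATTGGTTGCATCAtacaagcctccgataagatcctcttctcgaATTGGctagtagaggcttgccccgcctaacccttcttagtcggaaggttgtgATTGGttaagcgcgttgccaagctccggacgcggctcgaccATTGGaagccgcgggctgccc
Mdh2: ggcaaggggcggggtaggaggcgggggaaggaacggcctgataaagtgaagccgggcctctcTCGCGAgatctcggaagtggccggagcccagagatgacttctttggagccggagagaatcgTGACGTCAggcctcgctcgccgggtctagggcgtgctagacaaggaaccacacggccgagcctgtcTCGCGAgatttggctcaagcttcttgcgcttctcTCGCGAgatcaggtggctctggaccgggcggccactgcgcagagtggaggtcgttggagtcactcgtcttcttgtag
Slc25a11: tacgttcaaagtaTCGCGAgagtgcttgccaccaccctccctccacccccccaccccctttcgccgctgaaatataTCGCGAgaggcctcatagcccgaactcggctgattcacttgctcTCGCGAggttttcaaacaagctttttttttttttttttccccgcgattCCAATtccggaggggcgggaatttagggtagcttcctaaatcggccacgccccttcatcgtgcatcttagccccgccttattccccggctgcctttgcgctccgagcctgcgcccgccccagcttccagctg
TCGCGA was found in 2 of 7 shuttle promoters and in 821 of 32851 promoters in all (2.50%). It starts at -188, -61 and -27 in *Mdh2* and at -237, -174 and -130 in *Slc25a11*. CCAAT, the letters bound by the factor NF-Y, was in 4 of 7 (6 times in *Got1*, and in *Mdh1*, *Slc25a11* and *Slc25a13*), against 37.4% of all promoters. TGACGTCA was in *Mdh2* alone (1.79% of all), TGATGNAA in *Got1* alone (3.97%), directly beside a CCAAT match, and CACGTG, an E-box, in *Slc25a13* alone (7.15%). The NRF1 motif was in 0 of 7 (4.60% of all). The *Slc25a11* start site lies 492 bases inside the outer edge of its annotated gene. These are matches of letters only. CCAAT was held by genes with and without a call, and each other matched motif by 1 or 2 genes.

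Genes of neighbouring pathways were counted from lists, and each count stands against 26.2% higher and 26.8% lower among all genes tested. Lactate dehydrogenase uses cytosolic NADH in competition with the shuttle, and both genes rose, *Ldha* from 566 ± 53.9 to 1477 ± 198 CPM (log2 fold change 1.38, SE 0.17, edgeR adjusted p = 2.25e-04) and *Ldhb* from 2.99 ± 0.341 to 12.2 ± 3.18 CPM (2.03, SE 0.26, adjusted p = 2.77e-04). In the glycerol phosphate shuttle, the other route for cytosolic NADH, 1 of 2 genes tested rose. *Gpd1l* had a log2 fold change of 0.39 (SE 0.13, edgeR adjusted p = 0.0247), and *Gpd2*, the mitochondrial dehydrogenase, one of -0.20 (SE 0.23, adjusted p = 0.471). The *Gpd1l* call was lost without vehicle replicate 3, AOA replicate 2 or AOA replicate 3 (0.44, 0.36 and 0.42, edgeR adjusted p = 0.0549, 0.0905 and 0.0620), and *Gpd2* stood at 0.14 without vehicle replicate 2.

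Of 8 other genes of malate and oxaloacetate that were tested, 6 rose and 0 fell (26.2% and 26.8% of all genes), with a median log2 fold change of 0.66. The count was 4 without vehicle replicate 1, vehicle replicate 3 or AOA replicate 2 and 5 without AOA replicate 3. *Slc25a10*, the dicarboxylate carrier, rose from 7.85 ± 0.675 to 28.6 ± 1.03 CPM (log2 fold change 1.86, edgeR adjusted p = 3.12e-05). *Fh1*, the fumarase that supplies malate, rose from 43.7 ± 4.45 to 103 ± 18.9 CPM (1.24, edgeR adjusted p = 3.06e-04). *Pcx*, the pyruvate carboxylase that makes oxaloacetate, rose from 15.2 ± 6.02 to 32.3 ± 14.4 CPM (1.08, edgeR adjusted p = 0.0246). The *Pcx* call was lost without vehicle replicate 1, vehicle replicate 3 or AOA replicate 2, at 0.96, 0.93 and 0.66 (edgeR adjusted p = 0.0791, 0.0760 and 0.0898).

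Among 10 genes that use aspartate, 7 rose, 1 fell and 2 were not called, with a median of 0.69, where 26.2% of all genes rose and 26.8% fell. The 7 include *Nat8l*, near the floor with 1, 4 and 0 counts with vehicle and 12, 37 and 13 counts with AOA. With at least 10 CPM asked for in 3 libraries, *Nat8l* was not tested and 6 rose. *Cad*, which starts pyrimidine synthesis from aspartate, rose from 79.8 ± 29.8 to 249 ± 73.9 CPM (log2 fold change 1.64, edgeR adjusted p = 0.00158). *Adsl* and *Paics* of purine synthesis rose by 1.34 and 0.93 on the log2 scale (edgeR adjusted p = 7.44e-05 and 9.63e-04). *Adssl1*, an adenylosuccinate synthase best known from muscle, was the 1 that fell, from 16.9 ± 9.74 to 2.01 ± 0.231 CPM (-3.07, edgeR adjusted p = 7.71e-04).

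Of 8 other PLP aminotransferases tested, 4 rose, 1 fell and 3 were not called, with a median of 0.50. As 26.2% of all genes rose and 26.8% fell, the number called in either direction was near that of all genes. *Psat1* of serine synthesis rose from 63.1 ± 25.6 to 241 ± 33.2 CPM (log2 fold change 1.93, edgeR adjusted p = 3.83e-04). *Oat*, the ornithine aminotransferase, rose from 35.9 ± 3.16 to 109 ± 1.95 CPM (1.60, edgeR adjusted p = 2.52e-05), and *Bcat1*, which acts on branched-chain amino acids, from 7.19 ± 4.59 to 18.0 ± 4.76 CPM (1.32, edgeR adjusted p = 0.0187). The *Bcat1* call was lost without vehicle replicate 1, vehicle replicate 3 or AOA replicate 2, at 1.12, 1.08 and 1.10 (edgeR adjusted p = 0.0627, 0.0540 and 0.0678), and the value was 2.02 without vehicle replicate 2 (edgeR adjusted p = 1.94e-04). The 1 that fell was *Kyat1*, a kynurenine aminotransferase, named after its value was seen, from 8.57 ± 0.901 to 3.54 ± 0.643 CPM (-1.27, edgeR adjusted p = 0.00181). *Got1* and *Got2*, at log2 fold changes of -0.04 and 0.29, were thus among the PLP aminotransferases that did not pass the test. Of 2 transport genes tested, *Ucp2*, a mitochondrial carrier of aspartate and other C4 metabolites, rose by 0.44 on the log2 scale (edgeR adjusted p = 0.0299), a call that was lost without vehicle replicate 1 or 3 or AOA replicate 2 or 3 (0.37 to 0.50), and also with the trend in gene length removed (0.35, edgeR adjusted p = 0.0763).

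**Figure D4:**
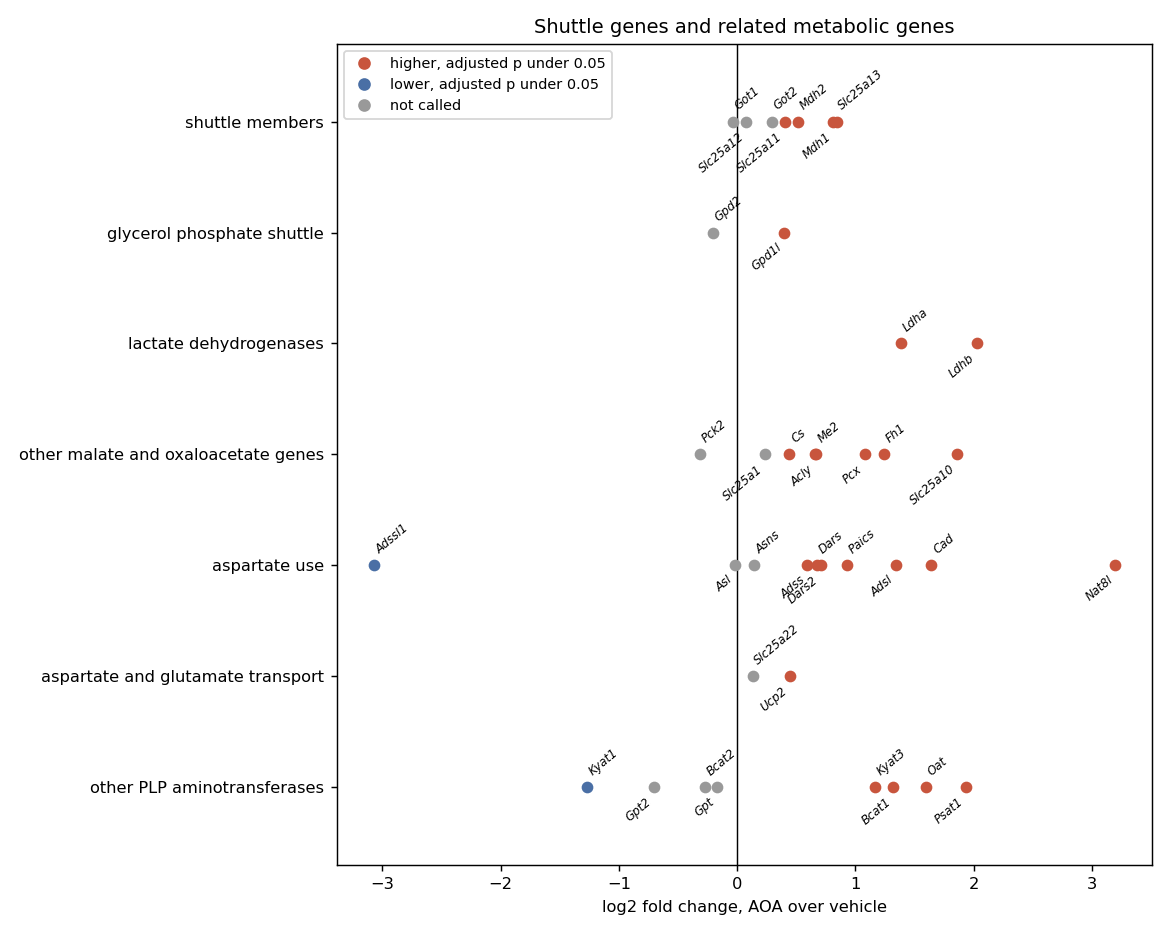
Log2 fold change, AOA over vehicle, of the 7 shuttle genes and of the tested genes in 6 related lists, with 1 point a gene, coloured by the edgeR call at an adjusted p of 0.05. The shuttle genes lie between -0.04 and 0.84, and the related genes between -3.07 (Adssl1) and 3.20 (Nat8l). Nat8l is near the floor, with 1, 4 and 0 counts with vehicle and 12, 37 and 13 counts with AOA.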

How the data were processed

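RNA was measured in 6 libraries of mouse CD8+ T cells (TruSeq stranded mRNA, paired reads of 75 bases). Per the labels and the study's methods, the authors mapped reads to mm10 with STAR at default settings and counted uniquely mapped reads per gene. The submitters' processing notes also name bcl2fastq, featureCounts and DESeq2. The sources used here give no version of these tools and no annotation. The deposited values are raw counts per gene with 1 other column, a gene length whose derivation is not stated.

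Counts were tested in R 4.3.3 with edgeR 4.0.16 (TMM, filterByExpr with a minimum count of 10, robust quasi-likelihood, treatment as the only term, Benjamini-Hochberg over 11759 of 11922 genes, threshold 0.05). CPM and RPKM used TMM library sizes, and SE and 95% intervals came from the fitted F statistic. With 3 libraries a group, depth (12881962 to 21997078 counts) limits low genes most. Replicates differed by more than sampling noise. Donor numbers in the labels pair the libraries by mouse, and same-numbered libraries deviated from their group means with r = 0.0868, 0.189 and 0.194 across genes for mice 1 to 3. The script was tested on simulated counts with 200 changed genes.

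Alternatives were DESeq2 1.42.0, limma-voom 3.58.1, other scalings and filters, mouse as a block, removal of the length trend (loess span 0.5) and leaving out each library. They were applied to single related genes only after those values had been seen. Members and lists were chosen with earlier results of these data known. All 7 shuttle genes are named, lists of up to 3 genes in full, and of longer lists up to 3 called genes a direction with the largest change and at least 10 CPM in the higher group. For *Got1* and *Got2*, the 3 genes of highest Pearson r are named. Promoters are from RefSeq (GRCm38.p6, matched by symbol for 7 of 7) and transcripts from GENCODE (GRCm38). No columns were left out.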

Additional observations from a re-analysis of the deposited data

How the results depend on the processing

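*Mdh1* and *Mdh2* kept their direction and call in 15 of 15 alternatives, with log2 fold changes of 0.74 to 0.95 and 0.38 to 0.58. *Got1* and *Slc25a12* were called in 0 of 15 (-0.13 to 0.087 and 0.02 to 0.18, with DESeq2, limma-voom and the edgeR settings). *Slc25a11* was called in 9 of 15 (0.32 to 0.51 with a library left out), and lost its call with the length trend removed and mouse as a block together (0.35, edgeR adjusted p = 0.0517). *Slc25a13* was called in 9 of 14 (0.63 to 1.28 with a library left out), and could not be tested with at least 10 CPM in 3 libraries. *Got2* was called in 1 of 15 (0.17 to 0.45 with a library left out). With mouse as a replicate block alone, the pairing changed no call among the 7 genes: the log2 fold changes were -0.03 (*Got1*), 0.27 (*Got2*), 0.82 (*Mdh1*), 0.52 (*Mdh2*), 0.41 (*Slc25a11*), 0.08 (*Slc25a12*) and 0.91 (*Slc25a13*). With a library left out, the number of other malate and oxaloacetate genes called higher was 4 to 6. The number of shuttle genes called higher was 2 to 4, that of the glycerol phosphate shuttle 0 to 1, and that of aspartate and glutamate transport 0 to 1. The first was 2 without vehicle replicate 1, vehicle replicate 3, AOA replicate 2 or AOA replicate 3. The transport count was also 0 with the length trend removed, with or without the block. Asking for at least 10 CPM in 3 libraries left 1 lactate dehydrogenase called higher, and 0 genes of aspartate use and 0 other PLP aminotransferases called lower, since low genes were no longer tested. Removing the length trend gave 2 such aminotransferases lower, and the cause was not tested. *Got1*, not called in any setting, changed sign with single libraries left out (-0.13 to 0.087), as did *Gpd2* (-0.34 to 0.14). Among the shuttle genes and the single related genes to which the alternatives were applied, no called gene changed sign. The median log2 fold change of all genes stayed within -0.04 to 0.02. The partner ratios moved with the library left out, from -0.44 to -0.22 for *Got1*/*Got2*, from 0.20 to 0.40 for *Mdh1*/*Mdh2* and from -1.28 to -0.55 for *Slc25a12*/*Slc25a13*. With 3 libraries a group, their exact permutation test could not reach p = 0.05, and an arm left with 2 libraries was fitted with the spread shared over all genes.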
